A study of Mus musculus with 13 samples.

Results

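Atorvastatin was given to 5 of the 13 aortas of the study and withheld from 8, and this split, with auranofin given or not as a covariate, was compared over all genes. The 5 libraries were those whose labels name atorvastatin, either alone (3 libraries) or together with auranofin (2 libraries). The other 8 came from mice on Western diet without added drug (5 libraries, called WD) or with auranofin (3 libraries). All 13 libraries were whole aortas of ApoE-/- mice, which lack apolipoprotein E, accumulate cholesterol-rich lipoproteins and develop atherosclerosis on this diet. All were fed the Western diet for 16 weeks from 6 weeks of age, given alone or with 10 mg/kg/day atorvastatin or 3 mg/kg/day auranofin, a gold-containing drug. The combination group received both drugs. The comparison therefore has a pair of strata that share no library: atorvastatin against WD without auranofin, and the combination against auranofin with it. No aorta of a wild-type mouse or of a mouse on normal chow enters it. The labels do not say that each library is a separate mouse, so that p-values measure the spread between these libraries only.

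Statins block the making of mevalonate, the precursor of cholesterol and of the isoprenoid tails of small GTPases. When sterol in the endoplasmic reticulum falls, the protein SCAP escorts the transcription factor SREBP2 (gene Srebf2) to the Golgi, where it is cleaved. Its nuclear fragment activates the genes of cholesterol synthesis and uptake. The INSIG proteins hold the pair back when sterol is plentiful, and SREBP2 is known to bind sterol regulatory elements together with the CCAAT-box factor NF-Y.

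Total counts ran from 19703683 to 26079566 per library. The smooth muscle markers of the labelled tissue were abundant in all 13 libraries, Acta2 at 4741 to 22512 CPM (the count relative to the library total, scaled by TMM factors) and Myh11 at 745 to 5549 CPM. Apoe itself was at 6.21 to 26.9 CPM over the 13 libraries. Reads of the mitochondrial genome made up 11.3 to 21.1% of counts in the 5 libraries with atorvastatin and 9.36 to 38.8% in the 8 without. The adjusted difference was -5.90 percentage points, with p = 0.229 in a two-sided exact permutation test within the strata (560 relabellings, of which 1 alone gives p = 0.00179). Auranofin 2 and WD 2 had the largest mitochondrial shares, at 38.8 and 26.9%, and the smallest TMM factors, at 0.629 and 0.639. In whole aorta, fewer cells of a type and less RNA per cell cannot be told apart.

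No gene passed an adjusted p of 0.05 for atorvastatin given or not in the additive model (0 of 18055 genes tested, 0.00%, edgeR quasi-likelihood test with Benjamini-Hochberg adjustment; smallest adjusted p = 0.546). At an unadjusted p under 0.05 there were 1278 genes (7.08%), of which 513 were fitted higher (2.84%) and 765 lower (4.24%). The share fitted higher among them was 40.1%, and 30.01% with an offset for transcript length and GC content. Their number was 353 without atorvastatin 1, 412 without atorvastatin 2, 563 without auranofin 2 and 724 without WD 5, and 2062, 1987 and 2403 without WD 3, auranofin 3 and combination 1. DESeq2 also called 0 genes, with 1958 at an unadjusted p under 0.05, and limma voom called 0, with 1451. Over all genes tested the median log2 difference was 0.003, and 9100 of them (50.4%) were fitted higher with atorvastatin. Everything below is a description of values that did not pass this test, and no gene is said to have changed. The genes at an unadjusted p under 0.05 differed in transcript length: the median longest transcript was 5077 bases for those fitted higher, 1125 for those fitted lower and 3000 for all genes tested. With the mitochondrial share as a covariate 232 genes had an unadjusted p under 0.05, and with the length and GC offset 833.

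The separate strata gave no call either. Atorvastatin against WD had 0 calls (0.00%, smallest adjusted p = 0.340 by edgeR with Benjamini-Hochberg adjustment) and 2648 genes at an unadjusted p under 0.05 (14.7%), 756 higher (4.19%) and 1892 lower (10.5%). The combination against auranofin had 0 calls (0.00%, smallest adjusted p = 1.00 by edgeR) and 359 genes at an unadjusted p under 0.05 (1.99%), 193 higher (1.07%) and 166 lower (0.919%). The difference between the strata was tested as an interaction: 0 genes passed (0.00%, smallest adjusted p = 0.791 by edgeR), and 559 had an unadjusted p under 0.05 (3.10%), 379 of them with a more positive difference on auranofin (2.10%), and 180 with a more negative one (0.997%). DESeq2 called 3 genes in the combination against auranofin, the atrial myosin light chain Myl4 and the channel genes Hcn4 and Cacna2d2. Hcn4 and Cacna2d2 were named after their values were seen. In the interaction DESeq2 called 11 genes, which included Myl4, Myh6, Tnnc1 and other sarcomere genes of the heart.

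Across the 18055 genes the log2 differences in the strata had the same sign for 9494 genes (52.6%). Pearson's r across genes was 0.002 and Spearman's rho 0.12, where genes are not independent replicates and the strata share no library. The relation moved with single libraries: the same-sign share was 38.6% without auranofin 2, 42.9% without combination 2, 59.7% without auranofin 1 and 62.4% without combination 1. Few genes separated the groups completely: the 5 libraries with atorvastatin lay above all 8 others for 9 genes (0.0498%) and below all 8 for 18 genes (0.0997%).

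**Figure D1:**
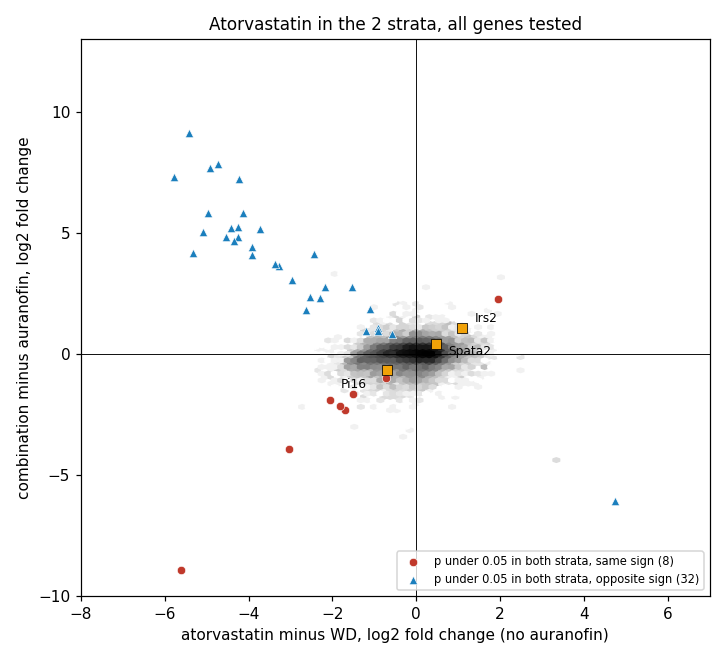
Log2 fold change of atorvastatin against WD (x axis) and of the combination against auranofin (y axis) for the 18055 genes tested, drawn as a grey density on a log count scale within 7 of 0 on both axes. Red circles are the 8 genes and blue triangles the 32 genes with an unadjusted p under 0.05 in both strata with the same or the opposite sign, and orange squares are Irs2, Spata2 and Pi16; the blue triangles gather at upper left, lower without auranofin and higher with it.

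The most direct readout of a statin, the sterol-regulated genes, was described first. The promoters of 3 of them are shown because they are the kind of sequence through which SREBP2 is known to act; they are the 3 cholesterol genes of the statin gene panel used here with a RefSeq entry and the smallest p in the additive model. The sequences are the strand of the gene from 250 bases before to 50 bases after the annotated start (RefSeq, GRCm38.p6). Capitals mark matches of CCAAT or TCACNCCAC on either strand, so that a CCAAT on the other strand reads ATTGG. The entries are Srebf2 at chr15:82147019-82147318 (+), Cyp51 at chr5:4104648-4104947 (-) and Hmgcs1 at chr13:119690101-119690400 (+).
Srebf2: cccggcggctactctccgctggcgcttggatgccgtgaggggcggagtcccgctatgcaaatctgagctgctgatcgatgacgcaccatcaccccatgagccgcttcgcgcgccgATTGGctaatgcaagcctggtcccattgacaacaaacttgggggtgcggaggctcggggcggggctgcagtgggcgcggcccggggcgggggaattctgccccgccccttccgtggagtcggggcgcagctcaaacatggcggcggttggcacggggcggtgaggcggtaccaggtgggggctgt
Cyp51: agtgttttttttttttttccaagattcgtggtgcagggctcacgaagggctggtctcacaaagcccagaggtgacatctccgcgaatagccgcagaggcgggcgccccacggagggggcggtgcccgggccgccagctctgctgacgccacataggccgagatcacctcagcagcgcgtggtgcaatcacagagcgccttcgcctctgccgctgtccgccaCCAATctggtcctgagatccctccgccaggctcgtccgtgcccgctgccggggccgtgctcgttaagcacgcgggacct
Hmgcs1: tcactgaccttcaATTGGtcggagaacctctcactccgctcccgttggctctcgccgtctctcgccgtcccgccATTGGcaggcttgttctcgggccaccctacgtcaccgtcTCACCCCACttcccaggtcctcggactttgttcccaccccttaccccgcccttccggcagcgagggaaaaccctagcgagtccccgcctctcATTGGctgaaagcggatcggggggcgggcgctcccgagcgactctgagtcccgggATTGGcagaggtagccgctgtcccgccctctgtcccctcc
The sterol regulatory core TCACNCCAC was found in 1 of these windows, that of Hmgcs1, as TCACCCCAC starting 137 bases before the start site. It was in 1 of the 24 cholesterol genes with an entry (4.17%) and in 175 of the 12182 tested genes with one (1.44%). CCAAT was in 22 of the 24 cholesterol genes (91.7%) and in 5194 of the 12182 tested genes (42.6%), counting a gene where any of its entries held it. A match of letters is a description and not a bound site. Sqle has no entry in that table.

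The early steps of synthesis were uneven between the strata. Of the 9 genes of the mevalonate list, which runs from acetyl-CoA to the isoprenoid diphosphates, 0 passed and 4 were fitted higher, with a median log2 difference of -0.01. The median was 0.08 without auranofin and -0.08 with it, and 7 of the 9 had opposite signs in the strata. Hmgcs1, an enzyme of the early path, was at 16.9 to 58.9 CPM in WD, 57.6 to 75.7 CPM with atorvastatin, 51.4 to 78.7 CPM with auranofin and 41.5 to 89.3 CPM in the combination. Atorvastatin and WD overlapped through WD 3 alone, and the 2 combination libraries lay on either side of the auranofin libraries. Its log2 difference was 0.77 (SE 0.34) without auranofin and 0.05 (SE 0.43) with it, the interaction being -0.72 (SE 0.55, unadjusted p = 0.212 by edgeR).

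Idi1, the isomerase that makes dimethylallyl diphosphate, was at 15.4, 11.6, 28.0, 14.8 and 11.8 CPM in WD and at 23.1, 24.8 and 27.6 CPM with atorvastatin. It was at 21.2, 20.1 and 18.6 CPM with auranofin and at 16.4 and 21.3 CPM in the combination. WD 3 alone reached the atorvastatin libraries, and the combination libraries lay on either side of the auranofin libraries. The log2 difference was 0.62 (SE 0.26) without auranofin and -0.08 (SE 0.33) with it, and the interaction of -0.71 (SE 0.42, unadjusted p = 0.118 by edgeR) did not pass.

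Of the 12 genes from squalene to cholesterol, 0 passed, 8 were fitted higher and the median log2 difference was 0.20 (0.34 without auranofin, 0.03 with it). Sqle, squalene epoxidase, was at 10.1 to 18.7 CPM in WD and 15.8 to 20.2 CPM with atorvastatin. In the other stratum it was at 6.85 to 13.3 CPM with auranofin and at 13.5 and 12.8 CPM in the combination. The groups overlapped in both strata, and the log2 difference was 0.38 (SE 0.18). Cyp51, the lanosterol demethylase, differed by 0.36 (SE 0.19) and Hsd17b7, a later reductase, by 0.60 (SE 0.28). Ebp, a sterol isomerase of the same path, went the other way at -0.59 (SE 0.28), with WD 2 highest at 60.1 CPM.

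The list of SREBP control and cholesterol uptake had 10 of its 12 genes tested, of which 0 passed and 8 were fitted higher, with a median of 0.21 (0.23 and 0.21 in the strata). Of its members 6 were higher in both strata and none lower in both. Srebf2 itself was at 62.6, 44.4, 74.2, 43.9 and 77.1 CPM in WD and at 81.9, 71.8 and 76.8 CPM with atorvastatin. It was at 42.9, 27.7 and 58.5 CPM with auranofin and at 71.4 and 57.5 CPM in the combination. Each stratum overlapped through its highest control library or libraries, and the log2 difference was 0.44 (SE 0.20). Npc1, which exports cholesterol from lysosomes, differed by 0.50 (SE 0.24) and Scap, the escort of SREBP2, by 0.18 (SE 0.13). With the length and GC offset Scap was at -0.04, Npc1 at 0.26, Srebf2 at 0.20, Sqle at 0.21 and Cyp51 at 0.23. Insig1 overlapped widely, at 22.8 to 82.0 CPM in WD and 38.6 to 78.0 CPM with atorvastatin. Its log2 difference was 0.61 (SE 0.45) without auranofin and -0.35 (SE 0.58) with it.

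**Figure D2:**
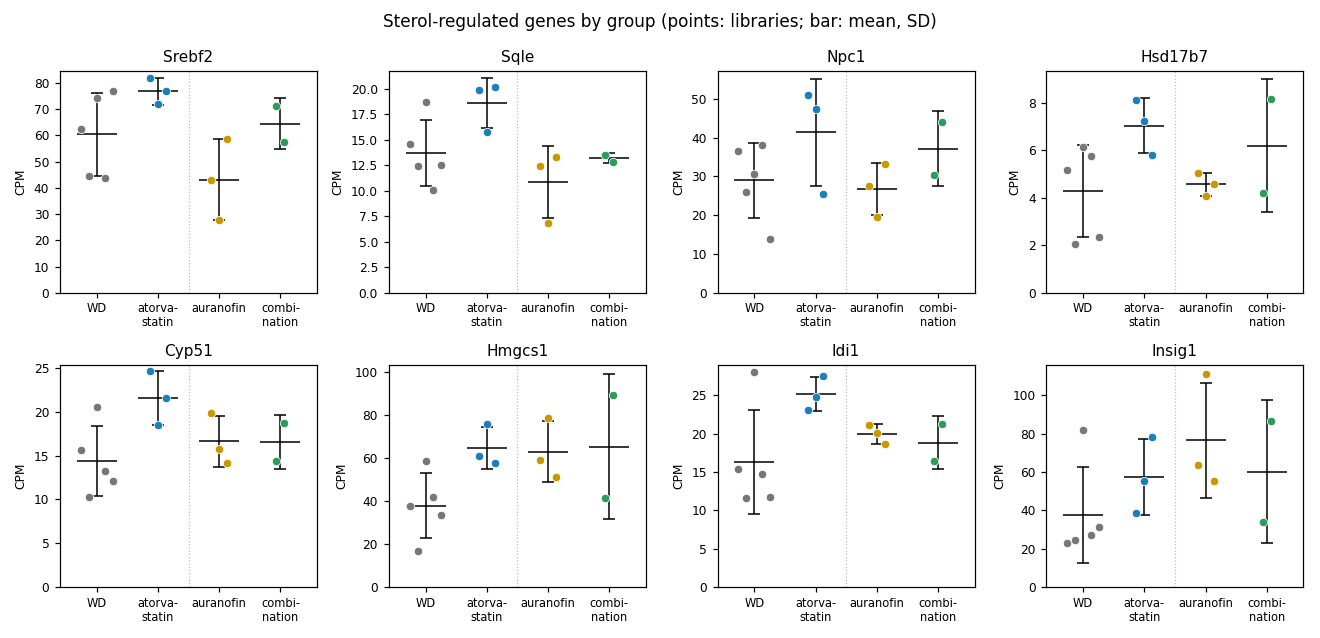
CPM of 8 sterol-regulated genes by group, each point 1 library, with the group mean as a bar and the SD as error bars; the dotted line separates the strata, WD and atorvastatin to its left, auranofin and combination to its right. Srebf2, Sqle, Npc1 and Hsd17b7 have the higher mean with atorvastatin on both sides of the line, Idi1 and Insig1 on the left only.

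Among other genes of the statin panel, those of the vessel wall's response to flow and lipid overlapped in both strata. Klf2, a flow-induced factor of endothelial cells, was fitted at -0.33 (SE 0.33), Klf4 at -0.05 (SE 0.20), Nos3, the endothelial nitric oxide synthase, at -0.28 (SE 0.29) and Thbd, thrombomodulin, at 0.15 (SE 0.28). Rhob, a GTPase that depends on isoprenoids, was at 0.03 (SE 0.16). Of the 14 genes of prenylation and small GTPases 0 passed and 3 were higher, with a median of -0.11 (-0.25 and 0.10 in the strata). Icmt, which methylates the prenylated end of such proteins, had the largest positive value, 0.36 (SE 0.17), or 0.15 with the length and GC offset. The efflux transporters Abca1 and Abcg1, induced when cells are loaded with sterol, were at 0.13 (SE 0.36) and 0.07 (SE 0.48), and of the 9 liver X receptor targets tested 5 were higher. Inflammatory genes had wide intervals: Vcam1 was at 0.28 (SE 0.41), Icam1 at 0.03 (SE 0.28), Ccl2 at -0.48 (SE 0.63), Il1b at -1.11 (SE 0.88) and Spp1 at 0.08 (SE 0.71).

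Which differences held in both strata was asked of all genes by a pair of rules. By the first, an unadjusted p under 0.05 in each stratum, 8 genes had the same direction (0.0443%) and 32 the opposite one (0.177%). The 8 were Shox2, higher, and Lrrn4cl, Trbc2, Myot, Myh4, Chil5, Gm6394 and Gm8960, lower. The rule for named genes leaves out predicted genes (Gm numbers) and T cell receptor segments. The 2 Gm genes and Trbc2 were therefore named after their values were seen. Shox2, Myot, Chil5, Gm6394 and Gm8960 were near the floor, with a negative mean log2 CPM. Shox2 was at 5.86 CPM in combination 2 and 1.48 CPM in atorvastatin 2. It was at 0.407 CPM in combination 1, below the 0.501 to 0.857 CPM with auranofin. Without atorvastatin 2 and combination 2 the log2 difference of Shox2 was 0.33, against 2.09 with all libraries. By the second rule, groups that do not overlap, 35 genes were higher (0.194%) and 49 lower (0.271%) in each stratum, while 51 were separated in opposite directions (0.282%). Within a single stratum the shares separated were 2.83% higher and 2.87% lower without auranofin, and 7.15% and 6.34% with it, where 2 libraries face 3. With such shares some genes meet the rule in both strata even if the strata are unrelated. The counts by either rule have no p-value of their own, and whether they exceed that number was not tested.

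Irs2 was the 1 gene separated in both strata among the 13 tested genes of the insulin and IGF list used here. It encodes an adaptor that links the insulin and IGF receptors to PI3-kinase. It was at 27.0, 10.1, 40.5, 31.2 and 11.5 CPM in WD and at 42.1, 59.1 and 54.2 CPM with atorvastatin. It was at 25.9, 15.2 and 17.8 CPM with auranofin and at 34.4 and 47.3 CPM in the combination, and WD 3 alone among the controls exceeded a library with atorvastatin. The log2 difference was 1.08 (SE 0.29, adjusted p = 0.546 by edgeR), 1.10 (SE 0.39) and 1.06 (SE 0.49) in the strata. Of the 13 insulin and IGF genes tested 0 passed and 9 were higher, with a median of 0.16. Pik3r1, a regulatory subunit of PI3-kinase, was at 0.35 (SE 0.16), or 0.10 with the length and GC offset.

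Spata2, which recruits the deubiquitinase CYLD, and Tfip11, a spliceosome factor, were higher in all 5 libraries with atorvastatin than in all 8 others. Spata2 was at 12.9 to 15.8 CPM in atorvastatin and at 12.3 and 12.6 CPM in the combination, against 9.13 to 12.1 CPM in WD and 8.10 to 10.4 CPM with auranofin. Its log2 difference was 0.45 (SE 0.12), and that of Tfip11 0.44 (SE 0.14). Furin, the protease that matures many secreted proteins, and Pelp1, a nuclear receptor coregulator, were separated within both strata, at 0.45 (SE 0.15) and 0.48 (SE 0.16). Dusp10, a phosphatase of stress-activated kinases, was at 0.58 (SE 0.17) and overlapped in both.

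Among genes fitted lower, Lurap1l and the tetraspanin Tspan6 lay below all 8 other libraries in all 5. Lurap1l was at 4.12 to 6.30 CPM with atorvastatin and at 6.06 and 6.80 CPM in the combination, against 7.03 to 11.2 CPM in WD and 7.75 to 9.51 CPM with auranofin. Its log2 difference was -0.60 (SE 0.17), and that of Tspan6 was -0.57 (SE 0.19). Lrrn4cl was at 9.77, 16.6, 11.4, 18.3 and 19.4 CPM in WD and at 7.34, 10.7 and 9.32 CPM with atorvastatin. It was at 20.02, 39.6 and 20.5 CPM with auranofin and at 11.98 and 14.5 CPM in the combination. The groups overlapped only in the first stratum, through atorvastatin 2 and WD 1, and the log2 difference was -0.84 (SE 0.23). Dact2, an inhibitor in Wnt and TGF-beta signalling, was at -0.91 (SE 0.26). Retnla, a product of alternatively activated macrophages, was at -1.55 (SE 0.51), with 76.1 CPM in WD 2 and 51.8 CPM in auranofin 2.

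The gene lists were read by their counts and medians, beside the 50.4% of genes fitted higher and the median of 0.003 over all genes. All 26 genes of the extracellular matrix list were fitted higher in the additive model, with a median of 0.45 and 0 passing. Of them 8 had an unadjusted p under 0.05 (2.84% of all genes tested were higher at that p). In both strata 24 were higher (medians 0.41 and 0.47), against 4816 of all 18055 genes tested. Fn1, fibronectin, was at 2683, 1441, 2417, 2001 and 1260 CPM in WD and at 4446, 4176 and 2068 CPM with atorvastatin. It was at 1467, 669 and 2189 CPM with auranofin and at 2487 and 2367 CPM in the combination. Atorvastatin 3 lay within the WD range, and the log2 difference was 0.82 (SE 0.30). Col1a1, Col5a1 and Col6a3, chains of fibrillar and microfibrillar collagens, were at 0.50 (SE 0.19), 0.60 (SE 0.24) and 0.74 (SE 0.30).

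The matrix list's mean log2 CPM was 8.62 to 9.15 in atorvastatin and 8.63 to 8.71 in the combination, against 8.11 to 8.92 in WD and 7.51 to 8.64 with auranofin. Its 4 lowest libraries, auranofin 2, WD 5, auranofin 1 and WD 2, were those with the 4 largest mitochondrial shares. The list's transcripts were long, at a median of 5696.5 bases. Its median was 0.20 with an offset for length and GC content (23 of 26 higher), 0.24 with the mitochondrial share as a covariate (22 of 26) and 0.32 without WD 2 and auranofin 2 (25 of 26). The part of library quality in this list's values was otherwise not tested.

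The cartilage and calcification list, genes of chondrocyte-like cells in advanced plaques and of the aortic root, had 11 of 12 genes higher in both strata, with a median of 0.76 (0.74 and 1.26). Acan, the cartilage proteoglycan, was at 4.61 to 65.0 CPM in the 8 controls and 16.8 to 83.2 CPM in the 5 libraries with atorvastatin, and its log2 difference was 1.19 (SE 0.53). Sox9 was at 0.85 (SE 0.39) and Col10a1 at 2.43 (SE 1.23), the latter with 100 CPM in atorvastatin 2 and 44.3 CPM in WD 1. Without atorvastatin 2 and combination 2 the list's median was 0.04 and 6 of 12 genes were higher. The TGF-beta list had 13 of 15 genes higher with a median of 0.29. Ltbp2, a protein of elastic fibres, was at 0.85 (SE 0.37), Tgfb2 at 0.59 (SE 0.29) and Smad3 at 0.29 (SE 0.16). With the length and GC offset Smad3 was at 0.07. The metalloproteinase list had 8 of 14 higher, with Timp3, an inhibitor of these enzymes, at 1.08 (SE 0.52).

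Of 15 smooth muscle contractile genes 8 were higher in the additive model, with a median of 0.03. Without auranofin 7 of 15 were higher (median -0.25) and with it 14 of 15 (median 0.36), auranofin 2 having the lowest level of this list. Of 10 genes of modulated smooth muscle 5 were higher without auranofin and 9 with it. Myh11, smooth muscle myosin, was at 0.50 (SE 0.40) and Acta2 at -0.26 (SE 0.35). Myocd, the coactivator that drives the contractile genes, was at 63.7 CPM in atorvastatin 1 and at 1.91 to 20.1 CPM in the other 12 libraries. Of 14 endothelial genes 5 were higher, with a median of -0.19 (0.15 and -0.69). Without auranofin 2 the endothelial median was 0.03 with 7 of 14 higher. Cldn5, a tight junction protein of endothelium, was at -1.04 (SE 0.37), with 113 CPM in auranofin 2. Of 19 genes of fatty acid synthesis 16 were higher, with a median of 0.30 (0.49 and -0.11). Fasn, fatty acid synthase and a gene of fat tissue too, ranged from 113 to 1464 CPM within WD, and its log2 difference was 0.67 (SE 0.55).

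**Figure D3:**
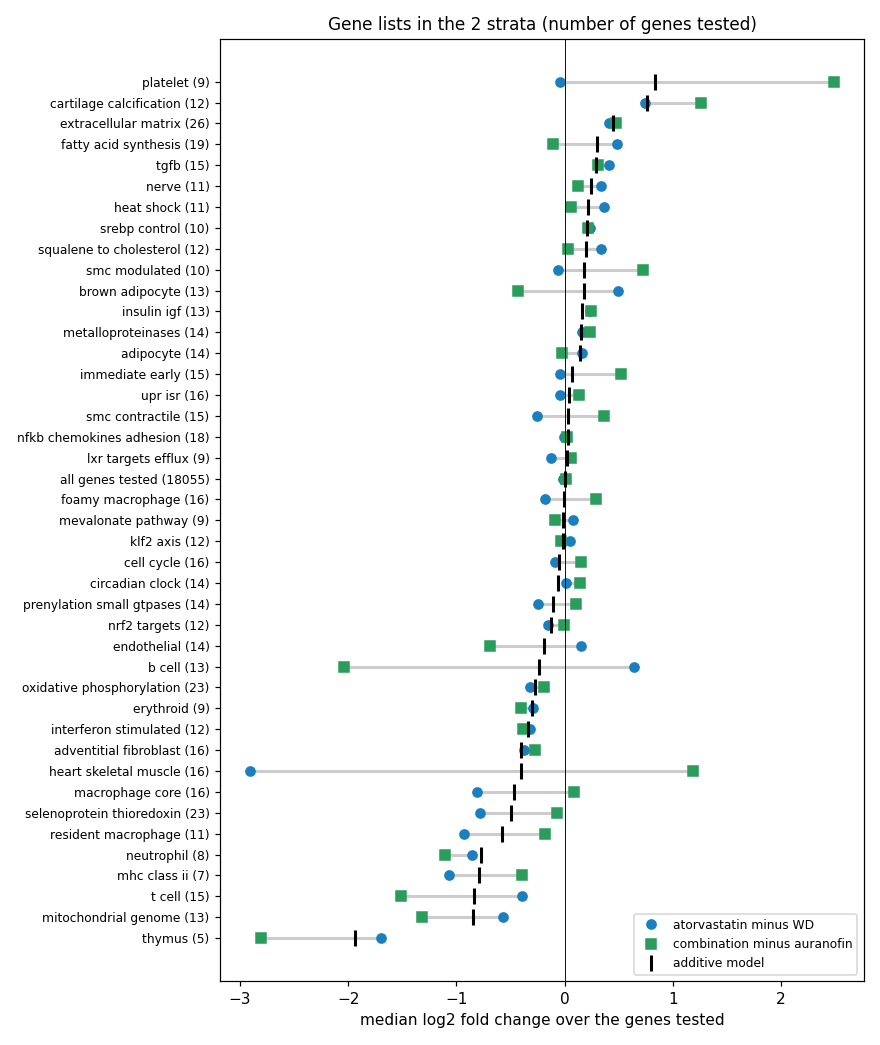
Median log2 fold change of each gene list (number of genes tested in brackets) for atorvastatin against WD (blue circles), the combination against auranofin (green squares) and the additive model (black ticks), ordered by the last. The extracellular matrix and TGF-beta medians lie close together above 0, whereas the heart and skeletal muscle, platelet and B cell medians lie far apart.

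The lists of adventitial fibroblasts, T cells and core and resident macrophages were mostly fitted lower. Other cells around the wall differed: the adipocyte list had 8 of 14 genes higher (median 0.15) and the brown adipocyte list 10 of 13 (median 0.18), with 0 passing. In the stratum on auranofin the medians of these fat lists were -0.02 and -0.43. Of the 16 adventitial fibroblast markers 14 were lower, with a median of -0.40 (-0.37 and -0.27) and 0 passing. At an unadjusted p under 0.05 in the additive model 7 were lower, against 4.24% of all genes tested. Pi16, a marker of progenitor-like adventitial fibroblasts, was at 250, 263, 212, 309 and 336 CPM in WD and at 133, 180 and 194 CPM with atorvastatin. It was at 251, 515 and 246 CPM with auranofin and at 218 and 210 CPM in the combination, so that the groups did not overlap in either stratum. The log2 difference was -0.68 (SE 0.21), and the secreted Clec3b and Igfbp6 were at -0.88 (SE 0.33) and -1.06 (SE 0.42). The list's median stayed between -0.46 and -0.32 when each library was left out in turn, and was -0.38 with the length and GC offset. With the mitochondrial share as a covariate Pi16 was at -0.51 and Clec3b at -0.48. At an unadjusted p under 0.05 by edgeR, 6 of the 16 were lower without auranofin (10.5% of all genes) and 0 with it (0.919%). The list was highest in WD 2 and auranofin 2, at a mean log2 CPM of 7.62 in each, the libraries with the largest mitochondrial shares. The list's lowest library was atorvastatin 1, at 6.58.

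Of the 15 T cell genes 14 were lower, with a median of -0.83 (-0.40 and -1.51) and 0 passing. Lck, the kinase next to the T cell receptor, was at 0.558 to 3.66 CPM in WD, 0.567 to 1.29 CPM with atorvastatin, 1.38 to 5.99 CPM with auranofin and 0.897 to 1.11 CPM in the combination. The groups overlapped in the first stratum and not in the second, where auranofin 2 was highest. Its log2 difference was -1.30 (SE 0.51), that of Cd3g -1.11 (SE 0.50) and that of Cd8b1 -1.93 (SE 0.65). Cd8b1 was highest in auranofin 1 and auranofin 2, at 4.46 and 4.02 CPM. The thymus gene Rag1, which cuts antigen receptor genes in developing lymphocytes, was at 6.67 CPM in auranofin 1 and 4.05 CPM in WD 3 and at most 0.263 CPM elsewhere; its part in the T cell values was not tested. Without WD 2 and auranofin 2 the T cell median was -0.35 with 4 of 15 genes higher.

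Macrophage genes varied widely within WD. Of the 16 core macrophage genes 15 were lower, with a median of -0.47 (-0.81 without auranofin and 0.09 with it) and 0 passing; without WD 2 and auranofin 2 the median was -0.01 with 6 of 16 higher. Lyz2 was at 186 to 3213 CPM within WD alone, and its log2 difference was -0.42 (SE 0.62). Without WD 2 alone the core median was -0.21, and without auranofin 2 alone -0.30. Of the 16 foamy macrophage genes, those of lipid-laden cells, 7 were higher with a median of -0.002, 4 of 16 without auranofin (median -0.18) and 14 of 16 with it (median 0.29). Resident macrophage markers were lower for 9 of 11 genes, with a median of -0.58 (-0.93 and -0.18). Timd4, the phosphatidylserine receptor of resident macrophages, was at 2.00, 2.52, 1.35, 2.89 and 1.27 CPM in WD and at 0.718, 1.18 and 1.13 CPM with atorvastatin. It was at 1.46, 3.10 and 2.20 CPM with auranofin and at 0.961 and 1.37 CPM in the combination. These groups did not overlap in either stratum at counts of 19 to 79 reads per library, and the log2 difference was -0.97 (SE 0.29).

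The neutrophil (0 of 8), MHC class II (0 of 7) and mitochondrial genome (0 of 13) lists had no member fitted higher, with medians of -0.77, -0.79 and -0.85 and 0 passing. H2-Aa was at 708 CPM in WD 2 and 501 CPM in auranofin 2, against 55.7 to 299 CPM in the other 6 controls and 82.5 to 177 CPM in the 5 libraries with atorvastatin. Without those 2 libraries the medians of the neutrophil, MHC class II and mitochondrial lists were -0.06, -0.10 and -0.37, and the log2 difference of H2-Aa, -0.94 (SE 0.59) with all libraries, was -0.12. Without WD 2 alone the MHC class II median was -0.39, and without auranofin 2 alone -0.56. The selenoprotein and thioredoxin list, which holds the thioredoxin reductase that auranofin inhibits, had 20 of 23 genes lower with a median of -0.50 (-0.78 and -0.07), while Txnrd1 itself was at 0.35 (SE 0.18). In the stratum on auranofin 9 of the 23 were higher. This list was highest in WD 2, at a mean log2 CPM of 7.44, followed by WD 5 at 6.98. Without WD 2 its median was -0.31.

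**Figure D4:**
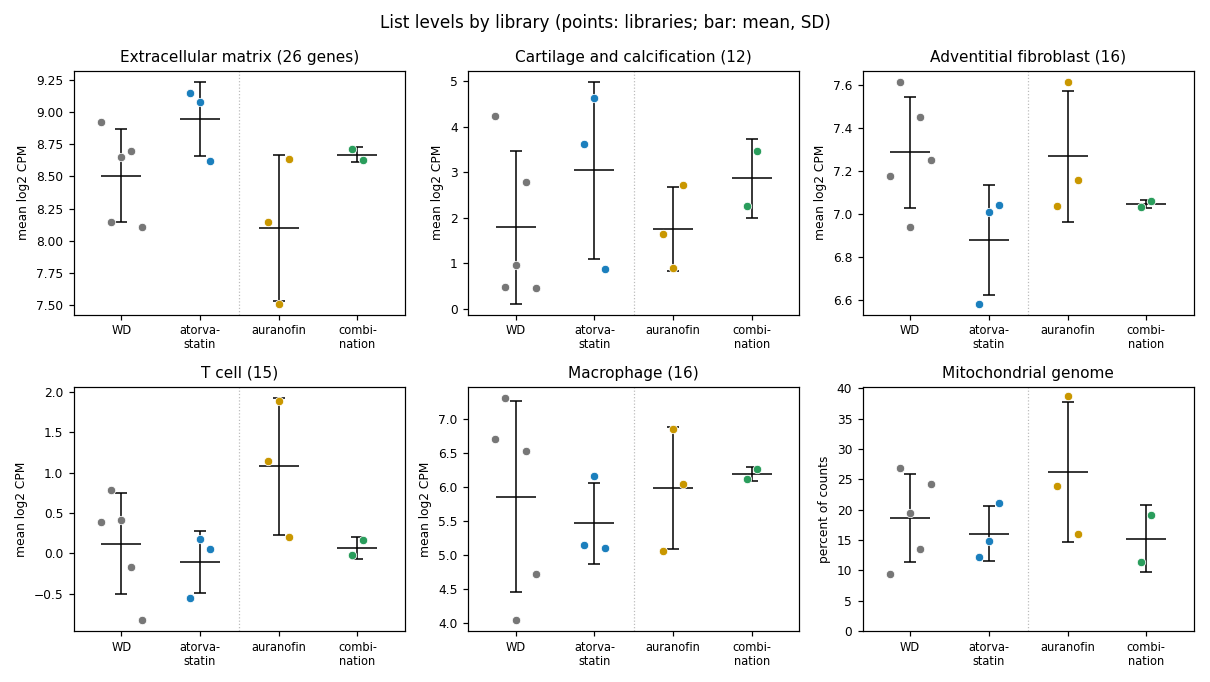
Mean log2 CPM of 5 gene lists and the mitochondrial share of counts by group, each point 1 library, with the group mean as a bar and the SD as error bars; the dotted line separates the strata. The matrix and fibroblast lists move in opposite directions with atorvastatin on both sides, and the spread of the macrophage list within WD, from 4.04 to 7.31, is larger than any difference between groups.

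Genes of the heart had opposite signs in the strata. Myh6, the heart's myosin heavy chain, was chosen after its values were seen. It was at 96.5 and 162 CPM in WD 1 and WD 4, at 625.3 CPM in combination 2, at 7.95 CPM in combination 1 and at most 1.63 CPM in the other 9 libraries. Tnnc1, cardiac troponin C, had the same pattern, with 16.6, 27.4 and 36.7 CPM in the same libraries, and an interaction of 9.62 (SE 2.22, unadjusted p = 0.00086, adjusted p = 0.791 by edgeR). Of the 16 heart and skeletal muscle genes tested the median was -2.91 without auranofin and 1.19 with it, with 9 of opposite sign, 6 lower in both strata and 1 higher in both. Myh4, a fast skeletal myosin and 1 of the 8 genes held in both strata, was at 31.3 and 5.83 CPM in WD 3 and WD 5 and at 36.9 CPM in auranofin 3, and at most 0.793 CPM in the other 10.

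The nerve list had 10 of 11 genes higher with a median of 0.25, and 9 higher in both strata. Its median was 1.86 without combination 1 and 1.66 without combination 2, where 13 of its genes passed the filter in place of 11, and 0.24 without atorvastatin 2. Dbh, which makes noradrenaline, was at 33.8 CPM in atorvastatin 2 and at most 1.32 CPM elsewhere, and Th, the first enzyme of that path, at 17.9 CPM against at most 2.08 CPM. Platelet genes were highest in combination 1: Itga2b, the platelet fibrinogen receptor, was at 25.7 CPM there, 7.32 CPM in combination 2 and at most 5.63 CPM in the other 11 libraries. The plasma cell gene Jchain was at 134 CPM in auranofin 2 and at most 3.23 CPM in the others. The part of such admixed transcripts in the other results was not tested.

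**Figure D5:**
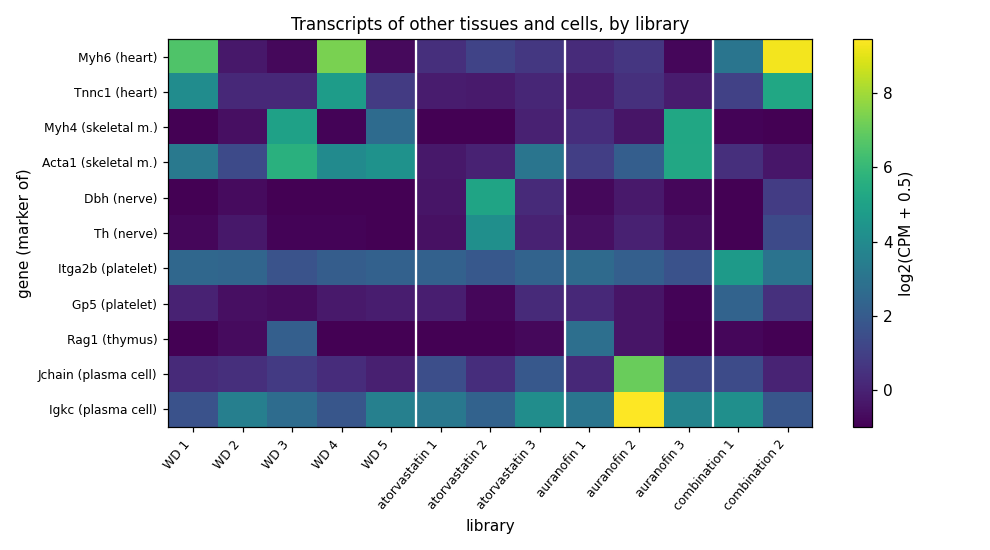
Level of 11 marker genes of heart, skeletal muscle, nerve, platelets, thymus and plasma cells in the 13 libraries, as log2(CPM + 0.5) on the colour scale; white lines separate WD, atorvastatin, auranofin and combination. Heart genes are bright in WD 1, WD 4 and combination 2, nerve genes in atorvastatin 2 and plasma cell genes in auranofin 2.

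The values held up unevenly when libraries, scalings or models were varied over 27 alternative fits. Irs2 kept a log2 difference of 0.83 to 1.24 and Lurap1l of -0.72 to -0.40. Spata2 kept 0.29 to 0.50, Pi16 -0.87 to -0.51 and Timd4 -1.14 to -0.81. None of these 5 changed sign, and their adjusted p was between 0.389 and 0.983 by the tools used (edgeR, DESeq2 and limma voom). All 5 had groups that did not overlap within either stratum of these same libraries, so that their kept sign is no independent support. Shox2 ranged from 0.33 to 2.40 and Furin from 0.17 to 0.52. Insig1 came down to 0.03 without atorvastatin 3.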

How the data were processed

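Poly-A RNA of 13 whole aortas was sequenced without strand information. The deposited values are gene counts, which the submitters' processing notes tie to STAR 2.6.1d, featureCounts, Subread 1.6.3 and GRCm39. Of 56953 genes, 18055 passed edgeR's filterByExpr over the 4 groups. Counts were scaled by TMM and tested with edgeR 4.0.16 (R 4.3.3) by the quasi-likelihood test with Benjamini-Hochberg adjustment, with auranofin as covariate, and as contrasts of the 4 groups for the strata and the interaction. DESeq2 1.42.0 and limma 3.58.1 (voom with quality weights) were alternatives. Scripts were tested on simulated data. Named genes were the 8 of smallest p per direction in the additive model, the 12 per direction by the larger p of the strata, the 4 per direction of the interaction, a panel of 26 statin-related genes and up to 4 per list by smallest p; the first 3 of these rules leave out predicted genes (Gm, Rik), antigen receptor segments and mitochondrial genes. The members and lists were chosen with earlier results of these data known. Genes that overlap on opposite strands or have near-identical copies may share reads. Promoters came from RefSeq (GRCm38.p6), and CCAAT was added as a motif after the data were seen. The precision of each count is limited by 19703683 to 26079566 counts per library. Some genes are not reported here.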

Additional observations from a re-analysis of the deposited data

Results flagged for a closer look

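A library was looked for that stood far from the rest of its group (WD, all 5 with atorvastatin, or all 8 without) by Dixon's test, over 119 quantities and 357 groups. It found 25, where chance flags about 1 in 20 groups. Genes are given in CPM and lists as mean log2 CPM.

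Within WD, WD 2 was highest for Dbh (0.120) and Th (0.300) and lowest for Pelp1 (7.87) and Myh11 (836.8). The Dbh and Th values were near the floor, the next WD library being at 0 and 0.0716. WD 3 was highest for Dusp10 (16.8), Rag1 (4.05) and Insig1 (82.0), and WD 4 for Nos3 (31.5).

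Among the 5 libraries with atorvastatin, atorvastatin 1 was highest for Myocd (63.7) and lowest for Cd3g (0.189). It was also lowest for the adventitial fibroblast (6.58), T cell (-0.55) and NRF2 target (4.40) lists. Atorvastatin 3 was highest for Myot (0.210) and Myh4 (0.462), also near the floor, with the next library at 0.0472 and 0.0370. Combination 2 was highest for the heart genes Myl4 (216.7) and Tnnc1 (36.7) and lowest for Klf4 (40.1).

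Among the 8 without it, auranofin 2 was highest for Dbh (0.329, near the floor), Nos3 (67.2), Jchain (133.7) and the B cell list (4.32). It was lowest for Col6a3 (55.9) and for the smooth muscle contractile list (7.38). WD 3 was highest for the list from squalene to cholesterol (4.05).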

How the results depend on the processing

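The additive model called 0 genes under every alternative run. Numbers of genes at an unadjusted p under 0.05, or with that p in both strata and the same or opposite direction, moved by over 1.5 times as follows, and the cause was not tested. With no filter on low counts the additive number was 2424, the combination against auranofin 723, the interaction 1197, same direction 33 and opposite 61, and atorvastatin against WD had 2 calls by edgeR (Scg2 and Dbh). With DESeq2 they were 1958 (additive) and 21 (same direction), with 3 calls in the combination against auranofin and 11 in the interaction. With limma voom the interaction had 1601. With the mitochondrial share as covariate the additive number was 232, the interaction 2705, same direction 3 and opposite 65. With an adipocyte score as covariate the combination against auranofin had 236 and the interaction 357. The equal-weight mean of the strata gave 752, and the 2 compared groups alone gave 1635 without auranofin and 233 with it. At p under 0.1 in each stratum 54 had the same and 72 the opposite direction, and at 0.01 there were 0 and 0. With the length and GC offset, added after seeing the data, the additive number was 833 and atorvastatin against WD 1760. Without atorvastatin 2 and combination 2, also added, these were 327 and 532, with 4 opposite. Without WD 2 and auranofin 2, also added, they were 494 and 1504, the combination against auranofin 221 and same direction 4.

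Leaving out 1 library at a time gave 353 to 2403 (additive), 327 to 4169 (atorvastatin against WD), 147 to 839 (combination against auranofin), 285 to 1175 (interaction), 3 to 27 (same direction) and 6 to 49 (opposite). Calls were 0 to 8 in the combination against auranofin and 0 to 2 in the interaction, the highest in each case without combination 1. The share fitted higher, 40.1%, was 51.9% with voom, 63.8% with the replicate block, 57.3% with the mitochondrial covariate, 55.3% without WD 2 and auranofin 2, 52.2% without auranofin 2 alone and 51.3% without atorvastatin 3 alone.

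Replicate numbers showed no clear pairing of the libraries. Over 15 same-numbered pairs the correlation of deviations ran from -0.31 to 0.43 (median 0.06), with 5 over 0.1. Over 46 other pairs it ran from -0.49 to 0.51 (median -0.04), with 16 over 0.1. With the replicate number as a block the additive model had 0 calls and 1146 genes at an unadjusted p under 0.05. Atorvastatin against WD had 1368, same direction 18 and opposite 5. Under the block the gene Abca1 was at -0.0538, Abcg1 -0.18, Spp1 -0.20 and Icam1 -0.034.

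The other log2 differences that changed sign were, with voom, Il1b 0.10, Ccl2 0.18, Lyz2 0.12, Cd68 0.12 and Rhob -0.010. With the mitochondrial covariate they were Klf4 0.074, Abcg1 -0.019 and Spp1 -0.036, with the equal-weight mean the gene Icam1 -0.00654, and with the offset Scap -0.036, Abca1 -0.24 and Abcg1 -0.25. Without atorvastatin 2 and combination 2 they were Mapk10 -0.11, Col10a1 -0.085, Abca1 -0.30, Klf4 0.060, Abcg1 -0.37, Spp1 -0.32 and Icam1 -0.052. Without WD 2 and auranofin 2 they were Il1b 0.37, Lyz2 0.16, Cd68 0.12 and Klf4 0.042. Leaving out single libraries moved Abca1 from -0.10 to 0.27, Abcg1 from -0.22 to 0.28, Icam1 from -0.071 to 0.21, Klf4 from -0.11 to 0.081, Rhob from -0.092 to 0.10 and Spp1 from -0.22 to 0.35.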
